A study of Mus musculus with 8 samples.

Results

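The genes described here are 10 members of the formative pluripotency and FGF response group in mouse embryonic stem cells (ESCs): the FGF ligand genes *Fgf4*, *Fgf5* and *Fgf15*, the transcription factor genes *Otx2* and *Pou3f1*, the feedback inhibitor genes *Dusp6*, *Spry2* and *Spry4*, and the ETS factor genes *Etv4* and *Etv5*. A probe belonged to a member when its RefSeq accession mapped to that symbol, which gave 11 of the 39429 probes on the array and 10 of the 19751 genes named there. *Etv4* had 2 probes and every other member had 1.

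The samples were VV3 ESCs, a male mouse line that carries a *Vasa*::Venus reporter transgene (*Vasa* is *Ddx4*), grown on STO feeder cells with serum and LIF. In 4 samples *L3mbtl2* was targeted by siRNA and 4 control samples received AllStars, a non-silencing siRNA; RNA was read on one-colour Agilent arrays, 1 per sample. The methods describe the *L3mbtl2*-KD cells as *Vasa*-positive cells collected by FACS and the samples as biological replicates. Whether the control cells of these arrays were also sorted is not stated, so the siRNA and the sort cannot be told apart. The comparison asks which of these genes differ in level when *L3mbtl2*, which encodes a component of a Polycomb repressive complex, is knocked down.

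In mouse ESCs, FGF4 is secreted by the cells themselves and signals through FGF receptors to the RAS-ERK cascade. ERK activity switches on ETS factors and also its own inhibitors, the Sprouty proteins and the phosphatase DUSP6, so that these genes serve as a transcriptional readout of the pathway. FGF/ERK signalling accompanies the exit from the naive state, and OTX2, POU3F1 (also called OCT6) and FGF5 mark the formative state that follows it.

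Values are log2 intensities after subtraction of the array's 75th percentile, so that a value of 0 is the 75th percentile of the array's spots, and a difference of 1 is 2-fold. Differences are given as *L3mbtl2*-KD minus control. The adjusted p is from limma with Benjamini-Hochberg adjustment over the 23518 probes tested, those that stood well above background throughout the control arrays or throughout the *L3mbtl2*-KD arrays, from 13652 genes. To be called, a gene needed 1 probe with an adjusted p under 0.05 and a difference above 2-fold. All 10 members were well above background on all 8 arrays. The arrays lay on 2 slides, with replicates 1 and 2 of both groups on slide 1 and replicates 3 and 4 on slide 2, so differences are also given within each slide. The number of arrays limits the precision.

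The siRNA target was lower in *L3mbtl2*-KD ESCs, and *Ddx4*, the endogenous gene that the reporter follows, was higher. The normalized log2 intensity of *L3mbtl2* was 0.27, -0.18, -0.21 and -0.31 in control replicates 1 to 4 and -1.45, -1.26, -1.58 and -1.73 in *L3mbtl2*-KD replicates 1 to 4. Its log2 fold change was -1.40 (limma standard error 0.152, adjusted p = 0.000944), and all 4 *L3mbtl2*-KD arrays lay below all control arrays. *Ddx4* had a log2 fold change of 2.83 (limma standard error 0.0875, adjusted p = 4.87e-06). The *L3mbtl2*-KD cells had been sorted as *Vasa*-positive, that is, by the reporter of this gene. Its higher level is therefore tied to the selection and is not a separate check of the knockdown.

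The labelled cell type was checked with 5 ESC markers. *Pou5f1*, *Sox2*, *Sall4*, *Zfp42* and *Nanog* were well above background on all 8 arrays. Their median log2 fold change was -0.17, beside -0.01 over all genes tested, and none passed the adjusted p in the probe that stands for the gene, the one with the highest mean signal. With the replicate block *Sall4* passed as lower (adjusted p = 0.0306). At an unadjusted limma p under 0.05, 2 of the 5 were lower and 0 were higher. *Nanog* had the widest spread, with values of -2.89, -1.38, -2.87 and -2.73 in control ESCs and -4.57, -3.93, -4.13 and -2.51 in *L3mbtl2*-KD ESCs (log2 fold change -1.32, limma standard error 0.487, adjusted p = 0.0962). The summed level of the 5 markers, in units of the array's 75th percentile intensity, was 41.1, 39.2, 37.3 and 36.1 in control replicates 1 to 4 and 34.0, 35.9, 34.3 and 33.5 in *L3mbtl2*-KD replicates 1 to 4, with the brightest probe that of *Pou5f1*. Brightness differs between probes for reasons other than RNA level, so it does not rank genes by abundance, and a sum is weighted towards the bright probes. The difference of *Nanog* was -2.11 within slide 1 and -0.52 within slide 2.

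Among the members, 1 of 10 was called lower in *L3mbtl2*-KD ESCs, where 3.21% of all 13652 genes tested were called lower (438 genes). None was called higher by limma, where 2.49% of all genes were (340 genes), and no member was higher at an unadjusted p under 0.05 or by the one-way test of the study's legends either. With normexp background correction, 194 genes were called higher and 159 lower, so that the share of higher genes among those called was 55.0% in place of 43.7%, and no member was called. By the adjusted p alone, at any size of change, 2 of 10 members were lower beside 10.8% of genes, and none was higher beside 9.35% of genes. The fitted change was below 0 for all 10 members, as it was for 51.6% of genes, and the members' median log2 fold change was -0.19 beside -0.01 over all genes. All 10 were also below 0 with normexp background correction and with quantile normalization, 9 were within either slide alone, and 7 to 10 were when 1 array was left out (7 without control replicate 1). *L3mbtl2*-KD arrays all lay below control arrays for 1 member, beside 13.8% of genes.

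**Figure D1:**
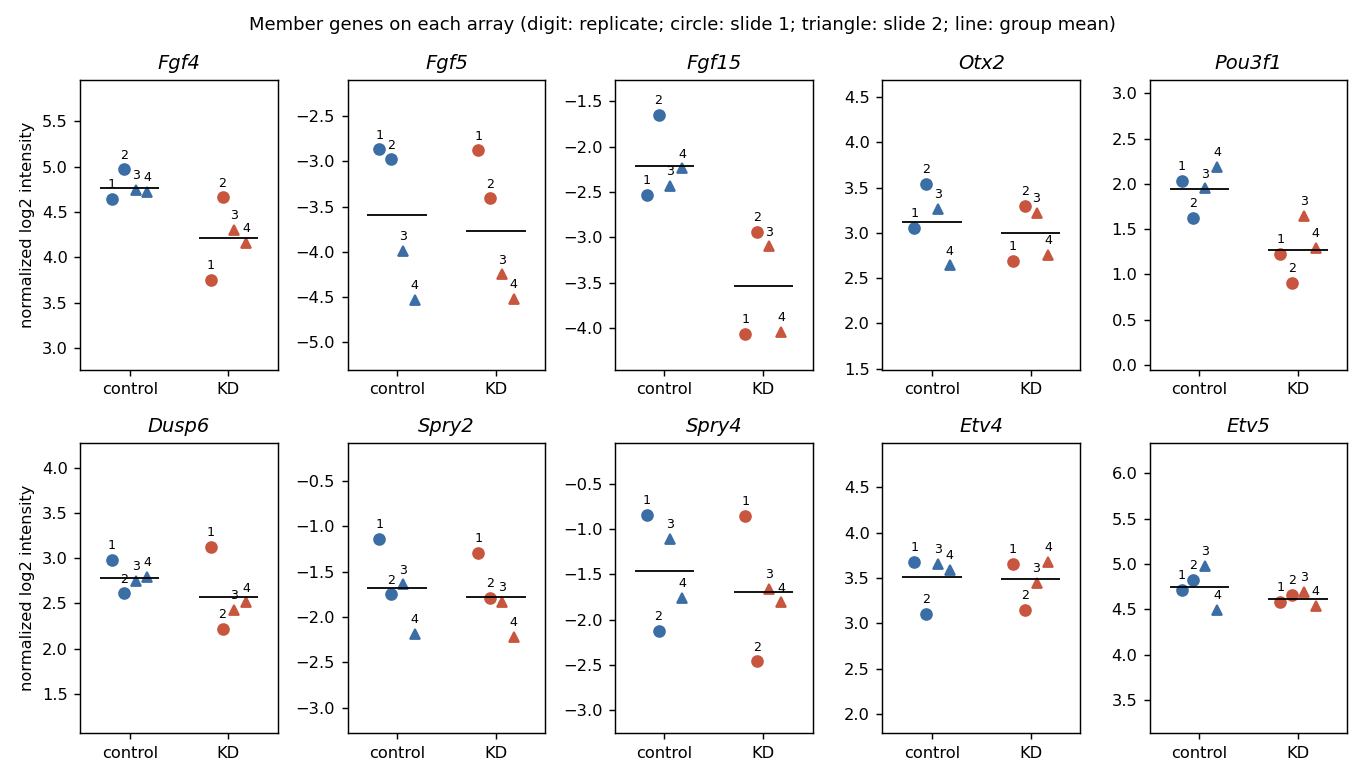
Normalized log2 intensity (vertical axis) of the 10 member genes on the 8 arrays, by group, with the replicate number above each point, circles for slide 1, triangles for slide 2 and a line at the group mean. Every panel spans the same range of log2 units; *Fgf15* is the member whose groups do not overlap, and for *Spry4* replicate 2 is the lowest array of both groups.

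Of the FGF ligand genes among the members, 1 passed the test. *Fgf15*, which encodes an endocrine FGF known best from the intestine and also made in the early embryo, fell. Its normalized log2 intensity (NM_008003) was -2.53, -1.65, -2.43 and -2.24 in control replicates 1 to 4 and -4.07, -2.94, -3.10 and -4.04 in *L3mbtl2*-KD replicates 1 to 4. *L3mbtl2*-KD replicates 1 and 4 were the lowest arrays, and the groups did not overlap. The group means were -2.21 ± 0.39 in control ESCs and -3.53 ± 0.60 in *L3mbtl2*-KD ESCs (SD, n = 4 each), a log2 fold change of -1.33 (limma standard error 0.309, adjusted p = 0.0207), which leaves 0.399 of the control intensity. The 2-sided exact permutation test over the 8 arrays gave p = 0.0286, the smallest that 4 against 4 arrays allow. This test takes the arrays as unpaired, and sign changes within the 4 inferred pairs could not give a p under 0.125. The difference was -1.41 within slide 1 and -1.24 within slide 2, and with slide as a block the adjusted p was 0.0247. *Fgf15* was lower in each of the 4 same-numbered pairs, by differences from -1.80 to -0.67. Without *L3mbtl2*-KD replicate 4 it was no longer called (log2 fold change -1.16, adjusted p = 0.0541), and with normexp background correction the change was less than 2-fold (-0.72, adjusted p = 0.0225). Normexp was run with an offset of 50, and the mean intensity of *Fgf15* was 200 in control ESCs and 77 in *L3mbtl2*-KD ESCs. The part of the offset in the smaller change was not tested. The call was also lost at the same log2 fold change of -1.33 in 2 other settings. These were limma without the filter on dim probes (adjusted p = 0.052) and the one-way test after Benjamini-Hochberg adjustment (adjusted p = 0.0603).

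*Fgf4*, the ligand that ESCs secrete, was measured by the probe of NM_010202. Its normalized log2 intensity was 4.64, 4.97, 4.74 and 4.72 in control replicates 1 to 4 and 3.75, 4.66, 4.30 and 4.16 in *L3mbtl2*-KD replicates 1 to 4. *L3mbtl2*-KD replicate 2 lay just above control replicate 1, so the groups overlapped, while each *L3mbtl2*-KD array was below the control array of the same number. The log2 fold change was -0.55 (95% interval -0.97 to -0.14, standard error 0.182), and it missed the threshold after adjustment (adjusted p = 0.0685 from limma). With the replicate number as a block the adjusted p was 0.0145, and without *L3mbtl2*-KD replicate 2 it was 0.0225 (log2 fold change -0.70). The 2-sided exact permutation p was 0.0571. The difference was -0.60 within slide 1 and -0.50 within slide 2.

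*Fgf5*, the ligand gene that marks cells leaving the naive state, followed the slide more than the group. Its normalized log2 intensity (NM_010203) was -2.87, -2.98, -3.99 and -4.53 in control replicates 1 to 4 and -2.88, -3.41, -4.25 and -4.52 in *L3mbtl2*-KD replicates 1 to 4. All 4 arrays of slide 1, which held replicates 1 and 2, were above all 4 arrays of slide 2. The log2 fold change was -0.17 (95% interval -1.24 to 0.89, adjusted p = 0.834 from limma), and it was -0.22 within slide 1 and -0.13 within slide 2.

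The promoters of the members were read for letters that they share. RefSeq windows from 250 bases before to 50 bases after a gene's start (build GRCm38.p6) were held for 6 of the 10 members, 10 windows in all, with 4 for *Otx2* and 2 for *Etv5*. The members named without a window were *Fgf15*, *Pou3f1*, *Spry4* and *Etv4*. CACGTG, an E-box, and TTCCCGCC, an E2F-type motif, were searched on both strands, since the complex that holds L3MBTL2 also holds the E-box factor MAX and the E2F factor E2F6. Neither was found in the 10 windows, beside 7.15% and 2.19% of all 32851 windows, and no match says only that these letters are not in the window. TATAAA and GGGCGG, added after the windows had been read, were found in 13.6% and 35.7% of all windows. GGGCGG was found in 3 member genes, *Fgf4*, *Fgf5* and *Etv5*, and TATAAA in *Fgf5* and in 1 window of *Otx2*. The 3 windows with GGGCGG are printed 5′ to 3′ on the strand of the gene, with matches to GGGCGG (or CCGCCC, its other strand) and TATAAA in capitals.
Fgf4 (chr7:144861136-144861435, + strand): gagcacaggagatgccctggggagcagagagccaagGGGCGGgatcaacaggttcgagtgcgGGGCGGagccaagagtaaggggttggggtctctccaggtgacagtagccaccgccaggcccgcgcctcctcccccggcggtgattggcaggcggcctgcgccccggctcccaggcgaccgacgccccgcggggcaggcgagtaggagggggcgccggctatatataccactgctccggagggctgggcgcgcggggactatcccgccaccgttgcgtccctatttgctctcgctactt
Fgf5 (chr5:98253934-98254233, + strand): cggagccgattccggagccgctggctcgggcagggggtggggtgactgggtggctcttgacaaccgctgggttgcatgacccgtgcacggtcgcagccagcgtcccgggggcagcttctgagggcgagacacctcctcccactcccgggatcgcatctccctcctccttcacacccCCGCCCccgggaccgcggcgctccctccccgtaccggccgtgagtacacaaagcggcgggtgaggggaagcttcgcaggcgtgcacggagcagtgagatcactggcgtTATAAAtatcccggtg
Etv5 (chr16:22439521-22439820, - strand): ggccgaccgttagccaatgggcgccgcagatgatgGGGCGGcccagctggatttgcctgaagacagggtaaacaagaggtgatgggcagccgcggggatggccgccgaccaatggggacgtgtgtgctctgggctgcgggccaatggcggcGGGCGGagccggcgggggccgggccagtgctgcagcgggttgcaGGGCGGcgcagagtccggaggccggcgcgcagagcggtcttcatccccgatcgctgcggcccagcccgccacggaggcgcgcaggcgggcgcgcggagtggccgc
In the *Fgf4* window the GGGCGG matches began at positions -214 and -188 relative to the start, and in the *Etv5* window at -215, -99 and -55. The G and C content of these windows was 69.7% for *Fgf4*, 68.3% for *Fgf5* and 74.0% for *Etv5*, beside a median of 52.7% over all windows. They were picked for holding GGGCGG, which is made of G and C only. The other member windows had 41.7% (an *Otx2* window) to 62.7% (*Spry2*).

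The formative transcription factor genes were *Otx2*, which encodes a homeodomain factor, and *Pou3f1*, which encodes a POU factor. The normalized log2 intensity of *Pou3f1* (NM_011141) was 2.03, 1.62, 1.95 and 2.19 in control replicates 1 to 4 and 1.23, 0.91, 1.65 and 1.29 in *L3mbtl2*-KD replicates 1 to 4. *L3mbtl2*-KD replicate 3 lay just above control replicate 2, which was the only overlap between the groups, and replicate 2 was the lowest array of each group. The log2 fold change was -0.68 (95% interval -1.08 to -0.28, limma standard error 0.176, adjusted p = 0.0301), which is 0.623 of the control intensity and under the 2-fold threshold. The difference was -0.76 within slide 1 and -0.60 within slide 2, and the adjusted p with slide as a block was 0.0136. The 2-sided exact permutation p was 0.0571. *Pou3f1* was lower in each of the 4 same-numbered pairs, but its adjusted p rose above the threshold in 6 of the 8 fits that left out 1 array, the exceptions being those without control replicate 2 or *L3mbtl2*-KD replicate 3. These 6 fits gave adjusted p of at most 0.0759, with log2 fold changes of -0.69 to -0.56.

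*Otx2* did not pass the test. Its normalized log2 intensity (NM_144841) was 3.05, 3.54, 3.26 and 2.64 in control replicates 1 to 4 and 2.69, 3.30, 3.22 and 2.76 in *L3mbtl2*-KD replicates 1 to 4. Replicates 2 and 3 were the higher arrays in both groups, and the groups overlapped throughout. The log2 fold change was -0.13 (95% interval -0.62 to 0.36, adjusted p = 0.723 from limma), and it was -0.30 within slide 1 and 0.04 within slide 2.

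**Figure D2:**
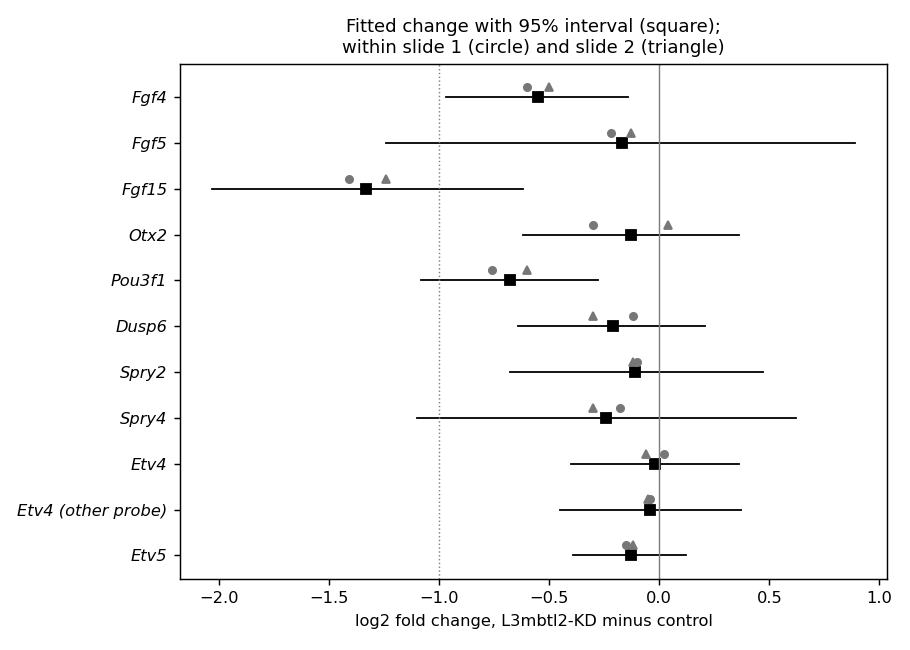
Fitted log2 fold change of each member probe, *L3mbtl2*-KD minus control (squares, with 95% intervals as lines), and the difference within slide 1 (circles) and slide 2 (triangles). The dotted line marks a 2-fold fall; the intervals of *Fgf15*, *Pou3f1* and *Fgf4* lie below 0, and that of *Fgf4* (-0.97 to -0.14) did not pass after adjustment.

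The 3 feedback inhibitor genes did not pass the test in either direction, and none had an unadjusted limma p under 0.05. *Dusp6* encodes the phosphatase that acts on ERK, and *Spry2* and *Spry4* encode Sprouty proteins that restrain signalling upstream of it. *Dusp6* (NM_026268) was between 2.61 and 2.98 in control ESCs and between 2.22 and 3.12 in *L3mbtl2*-KD ESCs, where replicate 1 was the highest of all arrays. Its log2 fold change was -0.21 (95% interval -0.64 to 0.21, adjusted p = 0.468 from limma). With 1 array left out, the change of *Dusp6* ranged from -0.40 (without *L3mbtl2*-KD replicate 1) to -0.10 (without *L3mbtl2*-KD replicate 2). The limma adjusted p in these fits was at least 0.0658. The intervals of *Spry2* (-0.68 to 0.47) and *Spry4* (-1.10 to 0.62) were wider.

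*Spry4* (NM_011898) varied with the replicate number. Its normalized log2 intensity was -0.84, -2.12, -1.11 and -1.76 in control replicates 1 to 4 and -0.85, -2.46, -1.66 and -1.81 in *L3mbtl2*-KD replicates 1 to 4. Replicate 1 was the highest and replicate 2 the lowest array of both groups. The means of the same-numbered pairs spanned 1.44 log2 units, while the log2 fold change between groups was -0.24 (adjusted p = 0.704 from limma). *Spry2* (NM_011897) was likewise highest in replicate 1 and lowest in replicate 4 of both groups, its pair means spanned 0.99, and its log2 fold change was -0.11 (adjusted p = 0.809 from limma). In each of the 4 same-numbered pairs the *L3mbtl2*-KD array was the lower for both genes, with differences of -0.55 to -0.01 for *Spry4* and -0.19 to -0.04 for *Spry2*, and neither passed with the replicate block (adjusted p of at least 0.136).

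The ETS factor genes *Etv4* and *Etv5* encode PEA3 family factors that FGF signalling switches on. Neither passed the test or had an unadjusted limma p under 0.05. The brighter *Etv4* probe (NM_008815) was at 3.68, 3.66 and 3.59 in control replicates 1, 3 and 4 and at 3.66, 3.15, 3.45 and 3.68 in *L3mbtl2*-KD replicates 1 to 4. The mean of the replicate 2 pair was 3.13, with the control array lower by 0.06. Replicate 2 was the lowest array in both groups for both *Etv4* probes. The log2 fold changes of the *Etv4* probes were -0.02 (95% interval -0.40 to 0.36) and -0.04 (-0.45 to 0.37). *Etv5* (NM_023794) was between 4.49 and 4.98 in control ESCs and between 4.54 and 4.69 in *L3mbtl2*-KD ESCs, with a log2 fold change of -0.13 (95% interval -0.39 to 0.12, adjusted p = 0.452 from limma). With 1 array left out, the change of *Etv5* ranged from -0.22 (without control replicate 4) to -0.06 (without control replicate 3).

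The members also differed in how much they varied within a group. The pooled within-group SD was above the median of all genes (0.184) for 9 of 10 members, and it was largest for *Fgf5* (0.781), *Spry4* (0.625) and *Fgf15* (0.508), at percentiles 98.9, 97.2 and 94.6 of the 13608 genes tested with a value on every array. *Etv5* was the exception at 0.155. The range of the same-numbered pair means was 0.32 to 1.66 log2 units among the members, beside a median of 0.37 over all genes. It was larger than the difference between groups for 8 of 10 members, beside 69.5% of all genes, and the others were *Fgf15* and *Pou3f1*.

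Replicate 2 stood apart in some early response genes. *Egr1*, an immediate early gene induced by ERK, was at 0.99, 3.15, 1.03 and 0.95 in control replicates 1 to 4 and at 3.20 in *L3mbtl2*-KD replicate 2 and at most 2.17 in the others. *Fos*, which like *Myc* was named after its values were seen, was at -2.26, -0.12, -1.01 and -1.43 in control replicates and at -1.66, 0.21, -0.80 and -1.36 in *L3mbtl2*-KD replicates. Both were highest in replicate 2 of each group, whereas *Myc* was lowest there (-2.52 in control ESCs and -2.22 in *L3mbtl2*-KD ESCs). Of the members, *Fgf4*, *Fgf15* and *Otx2* were highest in replicate 2 of both groups, and *Pou3f1*, *Dusp6*, *Spry4* and *Etv4* were lowest there. *Egr1*, *Fos* and *Myc* did not pass the test between groups, with log2 fold changes of 0.60, 0.30 and 0.65 (adjusted p = 0.498, 0.727 and 0.380 from limma), and with the replicate block *Myc* passed as higher (adjusted p = 0.00865). What the same-numbered samples share is not given in the sources used here.

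**Figure D3:**
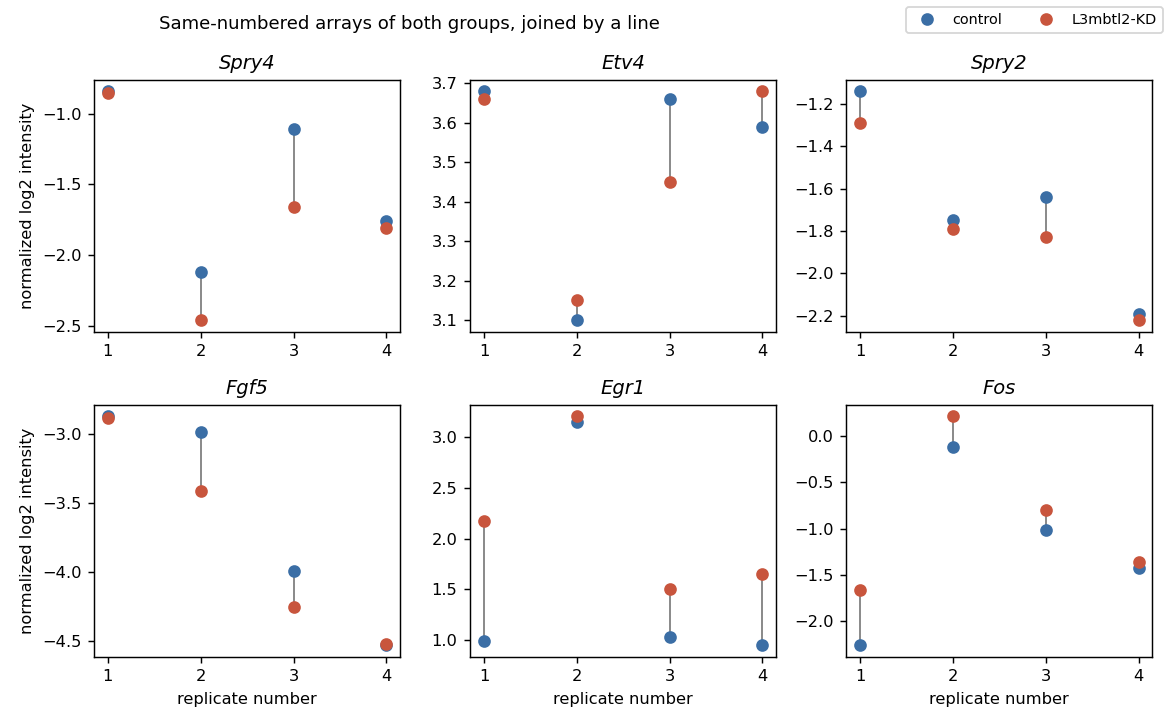
Normalized log2 intensity (vertical axis, scaled separately in each panel) of 6 genes by replicate number (horizontal axis) in control and *L3mbtl2*-KD ESCs, 1 array per point, with same-numbered arrays joined by a line. *Spry4* and *Etv4* are lowest in replicate 2 of both groups, *Egr1* and *Fos* are highest there, and *Fgf5* is higher in replicates 1 and 2 (slide 1) than in replicates 3 and 4 (slide 2).

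The other genes of the pathway were read from lists by role. Of 19 other FGF ligand genes, 12 were tested, 2 were called higher and 2 lower, and the median log2 fold change was 0.04. *Fgf8*, a ligand of gastrulation and patterning, rose (log2 fold change 1.25, limma standard error 0.152, adjusted p = 0.00149), and the other tested probe of the gene rose by 1.30. *Fgf7*, a mesenchymal ligand, rose by 1.21 (adjusted p = 0.00848), and *Fgf10*, another mesenchymal ligand, had a log2 fold change of -1.19 (adjusted p = 0.0249). For both rising genes the groups did not overlap. *Fgf7* was well above background on 3 of 4 control arrays and so entered the test through the *L3mbtl2*-KD arrays alone, the group in which it was higher. The call of *Fgf10* was lost in 6 of the 8 fits that left out 1 array (range -1.47 to -0.94), all but those without control replicate 3 or *L3mbtl2*-KD replicate 2. *Fgf1* was also higher on all *L3mbtl2*-KD arrays, but its adjusted p was 0.0527 (log2 fold change 1.11), and it was 0.0072 with the replicate block. With normexp background correction the changes of *Fgf8* (0.91), *Fgf7* (0.61) and *Fgf10* (-0.74) were under 2-fold.

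*Fgf3* lies beside *Fgf4* and *Fgf15* on the chromosome, in the order *Ano1*, *Fgf3*, *Fgf4*, *Fgf15*, *Lto1*, *Ccnd1* by the RefSeq gene table of GRCm38.p6. It was not well above background on any *L3mbtl2*-KD array, so only a bound can be given. *Fgf3* was at least 1.99-fold lower in *L3mbtl2*-KD ESCs (adjusted p = 0.0162 from limma), where the control mean was divided by the *L3mbtl2*-KD mean after each *L3mbtl2*-KD value had been raised, if lower, to the dimmest probe still well above background on that array. Without *L3mbtl2*-KD replicate 4 its fitted change was under 2-fold (-0.99), as with quantile normalization (-0.98) and normexp background correction (-0.21, adjusted p = 0.249). The flanking genes *Ano1* (log2 fold change 0.52, adjusted p = 0.153), *Lto1* (0.23, adjusted p = 0.215) and *Ccnd1* (-0.08, adjusted p = 0.893) did not pass in limma. *Fgf3* entered the test through the control arrays alone, and its bound lies under the 2-fold threshold, so its call rests on *L3mbtl2*-KD values that were not above background. With the replicate block *Ano1* (adjusted p = 0.0276) and *Lto1* (adjusted p = 0.0137) passed as higher.

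Of 7 receptor and co-receptor genes, 6 were tested, and the fitted change was below 0 in all 6, with a median log2 fold change of -0.28. *Klb*, which encodes β-Klotho, the co-receptor for FGF15, was called lower (log2 fold change -1.31, limma standard error 0.198, adjusted p = 0.00372), and changed by -0.49 with normexp background correction. It was well above background on 3 of 4 *L3mbtl2*-KD arrays and so entered the test through the control arrays alone, the group in which it was higher. *Fgfr4*, the receptor that works with it, was lower by less than 2-fold (-0.55, standard error 0.11, adjusted p = 0.0115), and both of its probes passed. The brightest probe of *Fgfr1*, the main FGF receptor gene of ESCs, had a log2 fold change of -0.36 (adjusted p = 0.0754, and 0.0195 with the replicate block), while another *Fgfr1* probe passed (-0.40, adjusted p = 0.0232) and the third did not (-0.08, adjusted p = 0.693). *Kl* was not well above background on any array.

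Among 21 adaptor and RAS-ERK cascade genes, 20 were tested and none was called by limma. Unadjusted, 2 were higher and 4 lower at p under 0.05. By the adjusted p, *Grb2* (log2 fold change 0.38, adjusted p = 0.00779) and *Map2k2* (0.33, adjusted p = 0.0346) were higher and *Araf* (-0.50, adjusted p = 0.0139) was lower. With the replicate block, 4 were higher and 4 lower. The adjusted p of *Map2k2* rose above the threshold in 7 of the 8 fits that left out 1 array, with changes of 0.28 to 0.35, and stayed below it only without *L3mbtl2*-KD replicate 2. The probes of *Nras* disagreed, with -0.81 for 2 probes (adjusted p = 0.00827 and 0.000707) and -0.08 for the probe with the highest mean signal (adjusted p = 0.589), and *Nras* was named after its values were seen. The other probes of *Araf* did not pass (0.06 and -0.18).

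Other feedback and response genes of ERK signalling were 21, of which 18 were tested. Their median log2 fold change was -0.05, and 2 were called lower and none higher by limma, with 1 higher at an unadjusted p under 0.05. *Dusp4*, an ERK phosphatase of the nucleus, was at -1.70, -1.46, -1.07 and -1.23 in control replicates 1 to 4 and at -2.78, -3.17, -2.74 and -3.35 in *L3mbtl2*-KD replicates 1 to 4. The groups did not overlap, and the log2 fold change of *Dusp4* was -1.64 (limma standard error 0.183, adjusted p = 0.00106). *Phlda1*, which ERK activity induces, had a log2 fold change of -1.02 (adjusted p = 0.0164), near the 2-fold threshold, and lost the call in 4 of the 8 fits that left out 1 array, those without control replicates 2, 3 or 4 or *L3mbtl2*-KD replicate 1 (range over the 8 fits -1.23 to -0.89). It also lost the call with normexp background correction (-0.93), which left 1 gene of the list called lower, *Dusp4* (-1.26). *Spry1*, the paralogue of *Spry2* and *Spry4*, passed the adjusted p below 2-fold (-0.62, standard error 0.10, adjusted p = 0.00503). Its groups did not overlap, and it passed in all 8 fits that left out 1 array. *Dusp5* had a log2 fold change of 0.40 (adjusted p = 0.0416) and passed in 1 of those 8 fits, the one without control replicate 2. With the replicate block, 3 genes of this list were higher and 5 lower by the adjusted p, in place of 1 and 3. *Etv1*, the PEA3 paralogue of *Etv4* and *Etv5*, had a log2 fold change of -0.34 (adjusted p = 0.177, and 0.0387 with the replicate block).

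**Figure D4:**
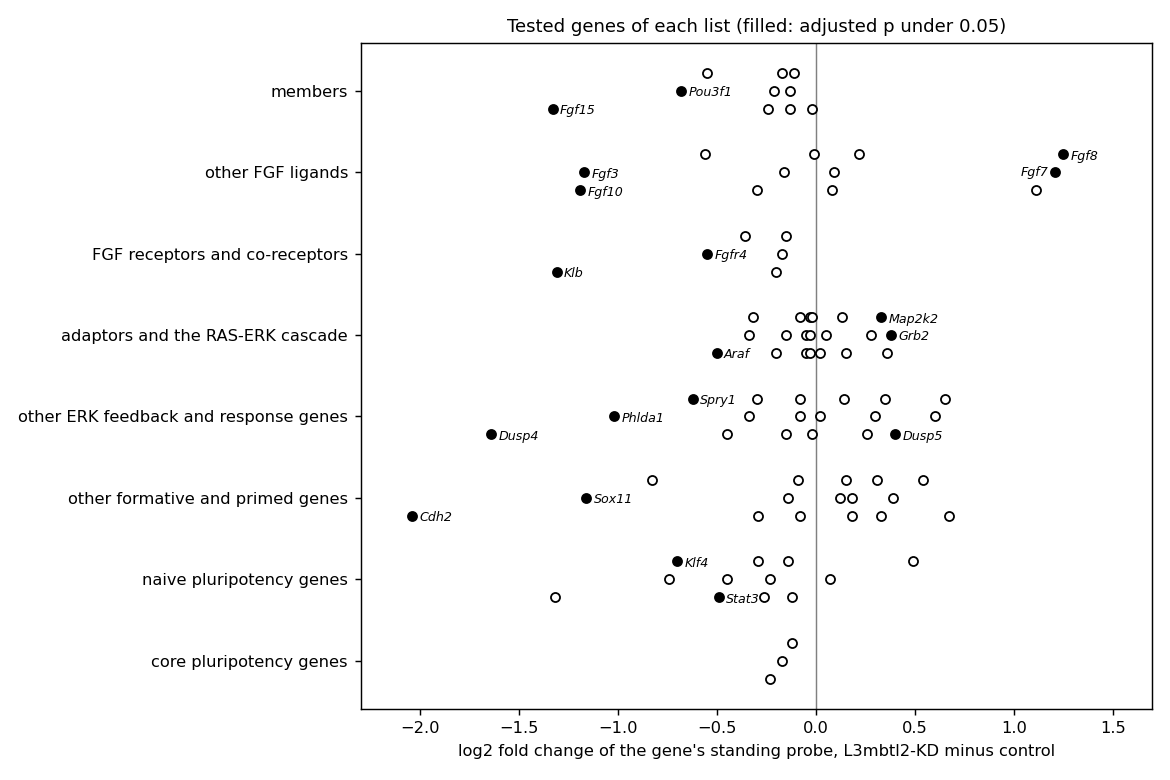
Log2 fold change (horizontal axis, *L3mbtl2*-KD minus control) of each tested gene of the members and of the lists by role, 1 point per gene, by the probe that stands for the gene; filled and named points had an adjusted p under 0.05, and points are offset vertically for legibility. *Fgf8* and *Fgf7* lie at 1.25 and 1.21, *Dusp4* at -1.64 and *Cdh2* at -2.04.

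Genes of the states on either side were compared next. Of 16 other genes of the formative and primed states, all were tested, with a median log2 fold change of 0.13. *Cdh2*, which encodes N-cadherin, fell by 2.04 (limma standard error 0.239, adjusted p = 0.00126), and *Sox11* fell by 1.16 (limma standard error 0.159, adjusted p = 0.00249), with both probes of each gene called. None was called higher by limma, and 1 was higher at an unadjusted p under 0.05. With the replicate block, 6 were higher by the adjusted p in place of 0, and 4 lower in place of 2. *Utf1* and *Lin28a*, the brightest of the list, had log2 fold changes of 0.12 and -0.29 (limma adjusted p = 0.617 and 0.312), and with the replicate block *Lin28a* passed as lower (adjusted p = 0.0117).

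Of 12 naive pluripotency genes, none was called by limma, and 4 were lower and 0 higher at an unadjusted p under 0.05. *Klf4* (log2 fold change -0.70, adjusted p = 0.0274) and *Stat3* (-0.49, adjusted p = 0.00876), which act in the LIF pathway, passed the adjusted p as lower. The adjusted p of *Klf4* rose above the threshold without control replicate 3 (0.0692), *L3mbtl2*-KD replicate 3 (0.0679) or *L3mbtl2*-KD replicate 4 (0.0709). The list's median was -0.28, and with the replicate block 5 genes were lower and 1 higher. The core genes *Pou5f1*, *Sox2* and *Sall4* had a median of -0.17, with 0 past the limma adjusted p (1 with the replicate block, *Sall4*) and 1 lower at an unadjusted p under 0.05. Of the paralogues of the transcription factor members, *Otx1*, *Crx*, *Pou3f2* and *Pou3f3* were not well above background on any array, and *Pou3f4* was on 1 array of each group.

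The replicate block moved counts of genes past the adjusted p by more than 1.5 times. Over all genes, 22.2% were higher and 23.8% lower with the block, in place of 9.35% and 10.8%. Of the members, 3 of 10 (*Fgf4*, *Fgf15* and *Pou3f1*) were lower with the block and 0 were higher. *Otx2*, *Dusp6*, *Spry2*, *Spry4*, *Fgf5*, *Etv4* and *Etv5* had adjusted p of 0.136 to 0.813 with it.

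Markers of other cell types moved with the groups. Of 14 feeder fibroblast markers, 12 were tested, 8 were called lower and 1 higher, and their median log2 fold change was -2.16. Among the called, *Dcn*, *Col3a1* and *Thbs1* were well above background on 0, 0 and 1 of 4 *L3mbtl2*-KD arrays. *S100a4*, which was not called, was above it on 3 of 4. These genes entered the test through the control arrays alone, the group in which they were higher. The median includes all of them, and the count of lower genes all but *S100a4*. With normexp background correction 6 were called lower and none higher, and the median was -1.19. Their summed level, in units of the array's 75th percentile intensity, averaged 12.5 ± 3.87 (SD, n = 4) in control ESCs, from 7.10 in replicate 1 to 16.0 in replicate 4, and was 5.98, 5.94, 6.50 and 6.58 in *L3mbtl2*-KD replicates 1 to 4. *Tagln* had the brightest probe of the list, and *Lum* and *Postn* were not well above background on any array. *Dcn* and *Col3a1* were not well above background on any *L3mbtl2*-KD array and were at least 12.1-fold and 7.81-fold lower there. The *L3mbtl2*-KD samples were sorted for *Vasa*-positive cells, a step that can remove other cells, so an effect of the sort and one of the siRNA on these markers cannot be told apart. Nor can fewer cells of a type and less RNA per cell.

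Of 13 primitive endoderm markers, all were tested, 8 were called lower and none higher by limma or at an unadjusted p under 0.05, and the median was -1.50. Among the called, *Foxa2*, *Dab2* and *Sox17* were well above background on 0, 1 and 3 of 4 *L3mbtl2*-KD arrays. They entered the test through the control arrays alone, the group in which they were higher. Both the count and the median include them. With normexp background correction 4 were called lower and the median was -0.80. Their summed level was 26.3, 24.5, 23.2 and 30.5 in control replicates 1 to 4 and 9.24, 12.4, 9.62 and 8.15 in *L3mbtl2*-KD replicates 1 to 4, with the brightest probe that of *Lama1*. *Cubn* had a log2 fold change of -3.20 (adjusted p = 0.000541 from limma), and *Foxa2* was not well above background on any *L3mbtl2*-KD array, at least 2.45-fold lower. *Gata6* was at 0.06 (adjusted p = 0.883). Primitive endoderm is a lineage that FGF signalling promotes in the embryo. As with the feeder markers, the sort and the siRNA cannot be told apart here. The part of the feeder and primitive endoderm cells in the values of *Fgf15*, *Pou3f1*, *Dusp4* or any other gene was not tested.

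The remaining marker lists moved less or in the other direction. Of 8 markers of the 2-cell-like state on the array, 7 were called higher and none lower, with a median of 1.76. With normexp background correction 6 were called higher and the median was 1.34. *Tdpoz4*, 1 of the 7, was well above background on 1 of 4 control arrays and entered the test through the *L3mbtl2*-KD arrays alone. *Sp110* was called through probes other than its brightest. That brightest probe (log2 fold change -0.02) makes up 70.8 to 87.7% of the summed level of the list, so the sum shows little of the other genes. The summed level of the list was 112, 121, 81.7 and 83.4 in control replicates 1 to 4 and 138, 131, 93.1 and 99.2 in *L3mbtl2*-KD replicates 1 to 4. None of the trophectoderm markers (7 of 8 tested) or the primitive streak and mesoderm markers (5 of 8 tested) was called, with 2 and 0 lower at an unadjusted limma p under 0.05 and medians of -0.48 and -0.14 (-0.25 and -0.04 with normexp background correction). By the adjusted p with the replicate block, 2 trophectoderm markers and 1 streak marker were lower. *Cdx2*, *Gata3* and *Krt7* were well above background on 3 of 4 *L3mbtl2*-KD arrays. They entered the test through the control arrays alone, the group in which they were higher. *Krt7* is among the 2 trophectoderm markers lower at the unadjusted p, and *Cdx2* among the 2 lower with the block. The median of that list is the value of *Gata3* (-0.48). Of 6 neurectoderm markers, 4 were tested and 1, *Zic1*, was called lower through a probe that was well above background on 2 of 4 *L3mbtl2*-KD arrays. The brighter *Zic1* probe had a log2 fold change of 0.29 (limma adjusted p = 0.117, and 0.0366 with the replicate block). With the replicate block 2 markers of this list were called lower. The mean summed levels in control and *L3mbtl2*-KD ESCs were 11.5 and 10.3 for trophectoderm (brightest probe *Tfap2c*), 1.11 and 1.03 for streak and mesoderm (*Eomes*) and 2.40 and 2.24 for neurectoderm (*Nes*). *Elf5* of the trophectoderm list and *Evx1* and *Wnt3* of the streak list were not well above background on any array. The part of these cells in the members' values was not tested.

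**Figure D5:**
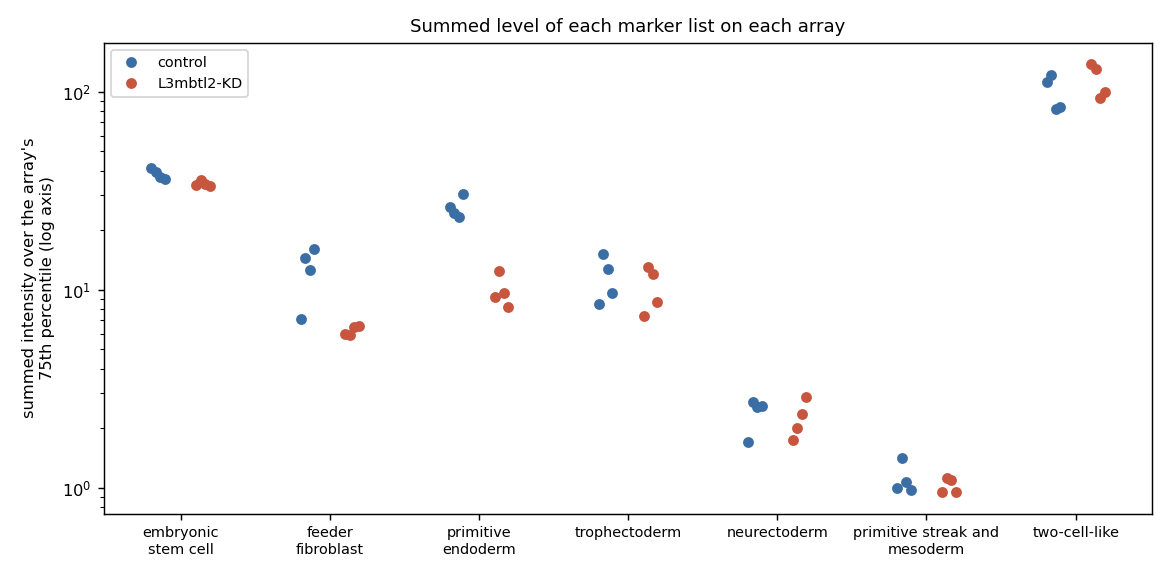
Summed intensity of each marker list over the array's 75th percentile (vertical axis, log scale) on each of the 4 control and 4 *L3mbtl2*-KD arrays, 1 point per array. The embryonic stem cell, feeder fibroblast and primitive endoderm sums are lower on every *L3mbtl2*-KD array than on every control array (for the first, 35.9 at most against 36.1 at least), with control replicate 1 (7.10) the lowest control for the feeder list.

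The genes whose profile over the 8 arrays was nearest to that of the 2 members with the largest fitted change were found by the root mean square difference after each gene's mean was subtracted, among 13607 other genes. For *Fgf15* they were *Sirpa* (difference 0.166 log2 units), *Gm4907* (0.170) and *Hspb8* (0.190). For *Pou3f1* they were *Selplg* (0.107), *Tmem98* (0.131) and *Myb* (0.139). The measure describes likeness over these 8 arrays alone.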

How the data were processed

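RNA of 8 VV3 ESC samples (4 *L3mbtl2*-KD, 4 control) was measured on one-colour Agilent arrays. The authors deposited the background-subtracted intensity of each spot from Feature Extraction software. The authors also deposited a table of log2 values, shifted by the 75th percentile and, set against the spot intensities, centred on each probe's median (lowest correlation 0.9999 over 39242 probes); its array medians lay between -0.059 and 0.079.

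Here, the log2 of this intensity was taken relative to each array's 75th percentile over non-control spots, outlier spots were left out and spots of a probe were averaged. No spot was saturated, and 59.5 to 66.6% of spots per array were well above background. Of 39429 probes, 26055 matched a RefSeq accession (GRCm38.p6 table). Groups were compared with limma 3.58.1 in R 4.3.3 (lmFit, eBayes, group only); 78 of the 23518 probes tested lacked a value on some array. limma was tested on simulated data.

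The arrays lay on 2 slides with both groups on each; control arrays took positions 1 and 3 and *L3mbtl2*-KD arrays 2 and 4, so position and siRNA cannot be told apart. Deviations from the group means correlated at 0.38 to 0.58 between same-numbered samples and at -0.44 to 0.25 between others, across probes, and samples were therefore treated as paired by number in the replicate block, a pairing that is inferred and not documented.

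The members and lists were chosen with earlier results of these data known. Named genes were drawn from all members, *L3mbtl2* and *Ddx4*; of each pathway list, called genes, or the extremes past the adjusted p where none was called, and the 2 brightest; of each marker list, up to 5 called genes and the brightest; and the 3 profiles nearest to each of 2 members. Other genes were named after their values were seen. Alternatives were normexp (offset 50; planned on mean spot intensity, run on the median, since no mean was held), quantile normalization, the deposited log2 table, other filters, slide or replicate blocks, an intensity trend, the one-way test of the study's legends, 1.5-fold, 1 probe per gene and leaving out each array.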

Additional observations from a re-analysis of the deposited data

Results flagged for a closer look

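Within a group of 4 arrays, the lowest or highest array was tested for its distance from the others, as the gap to its nearest neighbour over the range of the group (Dixon's ratio). Of 146 groups of the genes named here, 12 exceeded the 95% limit, where chance gives about 1 in 20 groups. Among the members this held for *Etv4* in control ESCs (ratio 0.857), where replicate 2 was low and the others averaged 3.64; *L3mbtl2*-KD replicate 2 was also the lowest of its group. *Egr1* in control ESCs had a ratio of 0.966, with replicate 2 at 3.15 and the others averaging 0.99. *Nanog* in control ESCs had 0.894, with replicate 2 at -1.38 and the others averaging -2.83.

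Control replicate 1 was the low array for *Phlda1* (ratio 0.898), *Spry1* (0.907), *Tagln* (0.860) and *Rps6ka1* (0.928), and control replicate 3 for *Sox17* (0.865). In *L3mbtl2*-KD ESCs, the ratio was 0.889 for *Dusp9* (replicate 3 low), 0.909 for *Pou5f1* (replicate 2 high), 0.903 for *Dab2* (replicate 1 high) and 0.844 for *Zic1* (replicate 1 low). *Dab2* was well above background on 1 of 4 *L3mbtl2*-KD arrays, so its ratio rests on values that were not above background. Control replicate 1 also had the lowest sum of feeder fibroblast markers among the control arrays (7.10). The causes were not tested.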

How the results depend on the processing

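Each result was recomputed under alternatives chosen with the design. The count of members called higher stayed at 0 under all of them, with limma or the one-way test, as did the count past the adjusted p as higher. The count of members called lower (1, *Fgf15*) was 0 with normexp background correction, without the filter on dim probes, within slide 1, within slide 2 and with the one-way test after Benjamini-Hochberg adjustment, and 2 at 1.5-fold; it was 0 to 1 when 1 array was left out (0 without *L3mbtl2*-KD replicate 4). The count past the adjusted p as lower (2, beside 10.8% of all genes) was 0 without the filter, within either slide and with the adjusted one-way test. The share of all genes was 4.84% without the filter, 6.15% within slide 2 and 8.47% with that test. Within slide 1 it was 0, so no member could pass there. The count was 3 with the replicate block (23.8% of genes). It was 0 to 2 when 1 array was left out (0 without *L3mbtl2*-KD replicate 4, beside 7.27% of genes). The cause was not tested.

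Genes called higher (340) were 194 with normexp, 0 within slide 1 and 700 at 1.5-fold; genes called lower (438) were 159 with normexp, 290 with probes above background on all arrays, 0 within slide 1 and 1014 at 1.5-fold. Leaving out 1 array gave 298 to 371 higher and 357 to 500 lower.

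The log2 fold change of *Fgf15* ranged from -1.53 to -0.72 over 20 alternatives (adjusted p 0.00707 to 0.327), that of *Pou3f1* from -0.81 to -0.56 (0.00935 to 0.257) and that of *Fgf4* from -0.70 to -0.39 (0.0145 to 0.515); none reversed. Members near 0 changed sign in some: within a slide, *Etv4* (0.02, slide 1) and *Otx2* (0.04, slide 2); without 1 array, *Fgf5* (-0.49 to 0.08; 0.07, 0.03 and 0.08 where positive), *Otx2* (-0.29 to 0.01), *Spry2* (-0.27 to 0.07; also 0.04), *Spry4* (-0.52 to 0.02) and *Etv4* (-0.16 to 0.09; also 0.04, 0.03 and 0.01). *Fgf4* passed with the replicate block (0.0145), the intensity trend (0.0468) and the unadjusted one-way test (0.0344). The pairing of samples by number (block) changed the call of no member, since *Fgf4* stayed under 2-fold (-0.55). It moved the adjusted p of no other member across the threshold. Medians of the lists kept their sign with normexp, quantile normalization and the block, except neurectoderm (0.00; -0.01 with normexp, 0.03 with quantile normalization).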
